A study of Mus musculus with 8 samples.

Results

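Small nucleolar RNAs (snoRNAs) and the genes that host them were described in muscle stem cells of old and young mice, which the submitters describe as quiescent. The members were chosen by name and level from the deposited expression table: every gene named Gas5, Snhg with a number, Snord or Snora whose mean over the 8 libraries was at least 1 RPKM (reads per kilobase of length and M reads, M standing for mega). The pattern matched 98 of 24630 genes, and 49 reached the minimum. Of these, 10 were host transcripts (Gas5 and Snhg1, Snhg5, Snhg6, Snhg8, Snhg9, Snhg12, Snhg15, Snhg18 and Snhg20) and 39 were snoRNA rows, that is, genes of the table annotated as the short snoRNA itself. The rule used the mean over both ages and no age contrast. It was written with earlier results of these data known.

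The cells came from 4 old (22 months) and 4 young (4 months) male C57BL/6 mice, each library representing 1 animal. They were sorted from limb muscle as negative for CD45, CD31 and Sca1 and positive for VCAM, without culture, and no group carried an allele or a treatment. The question set by the design is how age changes the transcripts of these cells. Complementary DNA was primed with oligo(dT), which reaches RNA with a poly(A) tail or an internal run of A, and the kit does not mark the strand.

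Most vertebrate snoRNAs are cut out of the introns of a host transcript. C/D box snoRNAs (Snord) guide methylation of ribose and H/ACA box snoRNAs (Snora) guide pseudouridylation, mainly of ribosomal RNA. Mature snoRNAs carry no poly(A) tail. Many hosts encode ribosomal proteins or translation factors, while Gas5 and the Snhg genes yield spliced RNAs without a long reading frame, several of which are known to be degraded by nonsense-mediated decay when they are translated.

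The snoRNAs on which the age comparison turns are printed here with their boxes in capitals. Snord35a, Snord34 and Snord32a lie in introns of the ribosomal protein gene Rpl13a at chr7:45126346-45126435, chr7:45126601-45126670 and chr7:45127382-45127464. Snora33 lies in Rps12 at chr10:23785347-23785475, Snord82 in Ncl (nucleolin, an abundant nucleolar protein) at chr1:86356261-86356330, all on the minus strand, and Snora31, the row with the most reads, in Tpt1 at chr14:75847905-75848034 on the plus strand. The sequences are those of GENCODE M21 on GRCm38, 5′ to 3′, as DNA letters, with TGATG and CTGA in capitals in C/D snoRNAs and ACA in H/ACA snoRNAs.
Snord35a: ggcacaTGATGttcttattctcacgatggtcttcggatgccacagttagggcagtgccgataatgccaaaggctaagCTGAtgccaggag
Snord34: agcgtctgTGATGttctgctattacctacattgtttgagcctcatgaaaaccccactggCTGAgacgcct
Snord32a: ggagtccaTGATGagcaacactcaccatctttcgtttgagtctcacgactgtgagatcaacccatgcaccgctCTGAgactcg
Snord82: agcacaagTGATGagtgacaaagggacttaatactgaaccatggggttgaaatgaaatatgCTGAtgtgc
Snora33: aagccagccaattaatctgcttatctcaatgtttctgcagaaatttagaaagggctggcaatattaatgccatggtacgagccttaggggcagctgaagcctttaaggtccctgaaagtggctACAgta
Snora31: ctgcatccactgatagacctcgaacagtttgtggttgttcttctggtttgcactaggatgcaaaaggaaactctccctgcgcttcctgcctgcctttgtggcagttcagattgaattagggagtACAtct

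On the annotated strand, TGATG within the first 20 bases and CTGA within the last 15 were both found in 23 of the 25 C/D members with a sequence used here, against 84.7% of all 98 Snord genes of the annotation. ACA within the last 8 bases was found in 13 of 13 H/ACA members, against 95.2% of all 42 Snora genes. A match is a description of letters only. The host transcripts were compared at their starts, because several are known to begin with a pyrimidine run (a terminal oligopyrimidine motif). A run of at least 5 pyrimidines (C or T) that starts with a C within 5 bases of an annotated start, on the gene's strand, was found in 5 of the 9 hosts matched in RefSeq on GRCm38.p6 (Snhg8, Snhg9, Snhg12, Snhg18 and, at 1 of its starts, Gas5), and at 18.4% of 32851 starts of all genes. Hosts were counted by gene and the 18.4% by start, and 8 of the 9 hosts had 1 start. The starts of 3 hosts are shown with 20 bases before and 30 after the annotated start, the longest pyrimidine run near it in capitals: Gas5 at chr1:161035146-161035195 (plus strand) and Snhg12 at chr4:132308658-132308707 (plus strand), which hold such a run, and Snhg1 at chr19:8723467-8723516 (plus strand), where the run is shorter.
Gas5: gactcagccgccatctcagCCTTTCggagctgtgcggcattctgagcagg
Snhg12: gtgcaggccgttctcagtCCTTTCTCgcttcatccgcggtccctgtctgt
Snhg1: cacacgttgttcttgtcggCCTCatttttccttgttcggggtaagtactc

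The depth differed between the ages. Reads in genes, recovered from the deposited values, were 20.1, 24.9, 22.9 and 20.8 M in the old libraries and 2.69, 1.91, 6.56 and 5.69 M in the young, so that depth and age cannot be told apart. Olfactory and vomeronasal receptor genes, which are silent in muscle, averaged 0.0163 to 0.0360 RPKM in old and 0.202 to 0.982 RPKM in young libraries. All values below are RPKM on library totals (reads in genes) unless the deposited scaling is named, and a difference on this scale is one in the proportion of reads. The deposited scaling puts the median gene 0.36 higher in old on the log2 scale, whereas on library totals it is -0.19. All 9 muscle stem cell markers were present in every library, and several differed by age. Pax7, which marks satellite cells, had 8.22 to 13.4 RPKM in old and 14.7 to 22.6 RPKM in young, and Calcr 14.4 to 21.3 RPKM in old and 44.0 to 62.4 RPKM in young. With Cdh15 and Chodl, 4 of the 9 markers were lower in every old than in every young library. The same held for 23.1% of all genes whose mean reached 1 RPKM, and 7.85% were higher in every old library. Myod1, a myogenic factor of activated cells, was higher in every old library (624 to 940 RPKM in old, 411 to 534 RPKM in young), whereas Vcam1 (369 to 629 RPKM in old, 224 to 386 RPKM in young) and Myf5 overlapped. Of 7 tenocyte markers, 6 were higher in every old than in every young library, beside the 7.85% of all genes, and Scx was at 0 in a library. The 7 tenocyte markers summed to 1877 to 5884 reads per M in old and 715 to 1137 in young. Endothelial markers summed to 162 to 360 reads per M in old and 376 to 451 in young. Of these 7 markers, 1 was lower in every old library, beside the 23.1% of all genes. The part of these shifts in the results was not tested, and in bulk samples fewer cells of a type and less RNA per cell cannot be told apart.

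Among the host transcripts, no age difference passed the test on library totals. Gas5, which hosts 10 annotated snoRNAs at chr1:161034422-161038539, was the most abundant, with 127, 124, 125 and 149 RPKM in the old libraries and 165, 114, 111 and 111 RPKM in the young. A single old and a single young library stood above the others of their group, and the groups overlapped. Its mean was 131 ± 11.8 RPKM in old and 125 ± 26.4 RPKM in young cells (SD, n = 4 each), and the log2 difference was 0.09 ± 0.15 (SE, limma-trend, Benjamini-Hochberg adjusted p = 0.671 over 11096 genes). Gas5 alone took 66.1% to 69.7% of the host reads in the old libraries and 65.1% to 76.5% in the young.

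The next hosts by level were Snhg5, Snhg15, Snhg1 and Snhg6. Snhg5 had 34.0, 36.5, 34.4 and 42.3 RPKM in old and 28.1, 35.4, 36.1 and 26.2 RPKM in young libraries, a log2 difference of 0.23 ± 0.14. Snhg1, which hosts 8 annotated snoRNAs at chr19:8723475-8726443, had 28.6, 29.7, 21.9 and 32.2 RPKM in old and 19.0, 28.7, 16.5 and 18.2 RPKM in young libraries. For Snhg1, 3 young libraries lay below every old one and young replicate 2 lay among the old, with a log2 difference of 0.45 ± 0.18 (limma-trend, adjusted p = 0.0855). Snhg1 passed without young replicate 2 (0.61, adjusted p = 0.0176), without the 2 shallowest libraries (0.66, adjusted p = 0.0464) and with limma-voom on the reads (0.53, adjusted p = 0.0413).

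Snhg20 was the host whose groups did not overlap, with 2.51, 2.67, 2.64 and 4.15 RPKM in old and 1.71, 2.41, 1.97 and 1.70 RPKM in young libraries. Its log2 difference was 0.42 ± 0.17 (limma-trend, adjusted p = 0.0787), it passed without young replicate 2 (0.50, adjusted p = 0.0494) and with the low-level signal of silent receptor genes subtracted (0.67, adjusted p = 0.0201), and it rested on 10 to 28 reads in each young library. Non-overlapping groups with old higher occurred in 7.85% of all genes tested, and with old lower in 23.1%. The other hosts overlapped and differed by little: the log2 difference was 0.25 ± 0.15 for Snhg6, 0.23 ± 0.19 for Snhg12, 0.14 ± 0.19 for Snhg15, -0.14 ± 0.18 for Snhg8 and -0.20 ± 0.22 for Snhg18. Snhg9 (log2 difference -1.01 ± 0.44, adjusted p = 0.108) was counted in 13 reads over all libraries, reached the minimum through its young libraries alone, and had no read in young replicate 4, without which its adjusted p was 0.00904 and its log2 difference -1.52. Since Snhg9 became a member through the group in which it was higher, no age result is drawn from it.

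**Figure D1:**
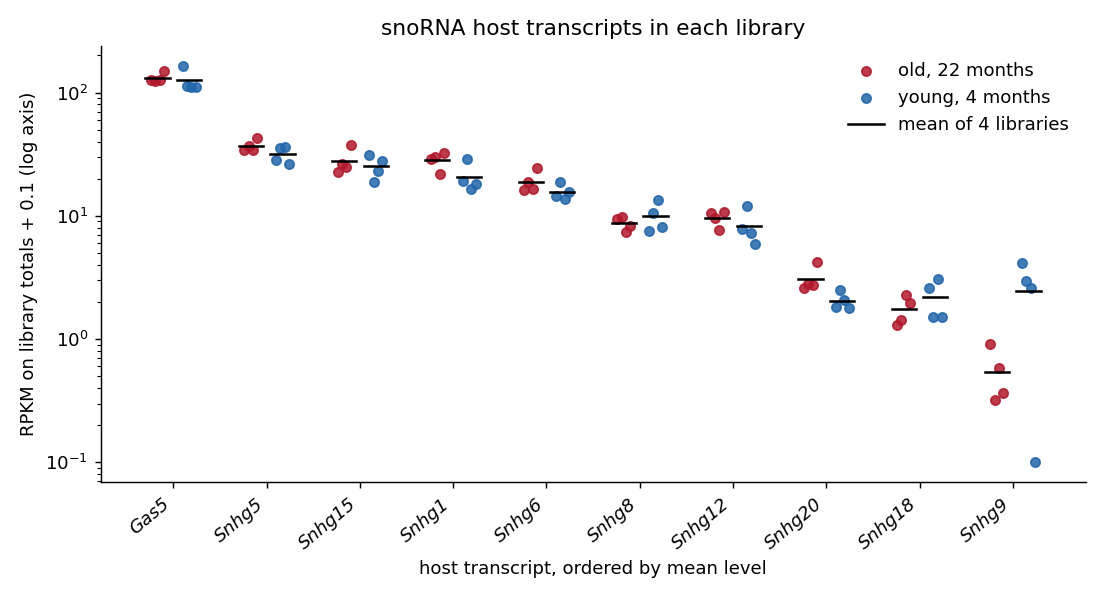
Level of the 10 host transcripts in each library, in RPKM on library totals plus 0.1 (log axis), old libraries left and young libraries right, with the mean of 4 libraries as a bar. Gas5 lies at 111 to 165 RPKM in all 8 libraries, and Snhg20 is the host in which every old library (2.51 to 4.15 RPKM) lies above every young library (1.70 to 2.41 RPKM).

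Counted together, 0 of 10 hosts passed the test in either direction with limma-trend, while 7.11% of all 11096 genes tested were called higher and 20.5% lower in old. At an unadjusted p under 0.05 there were 2 higher hosts (Snhg1 and Snhg20) and 1 lower host, beside 10.8% of all genes higher and 30.4% lower at that threshold. The lower host was Snhg9, with its 13 reads, a member through its young libraries alone. With limma-voom 1 host was called higher (Snhg1), beside 7.10% of all genes higher and 25.0% lower. The median log2 difference of the hosts was 0.18, against -0.19 for all genes tested. On the deposited scaling the median of the hosts was 0.83 and 7 of them passed the test as higher, as did 42.1% of all genes on that scaling, on which 5.34% were lower. Snhg8 and Snhg18 were higher in old on the deposited scaling (0.48 and 0.23) and lower on library totals, without passing the test on either. The summed reads of the hosts other than Gas5 were 225, 240, 204 and 283 per M in old and 190, 230, 190 and 177 per M in young libraries, groups that overlapped by 1 young library.

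**Figure D2:**
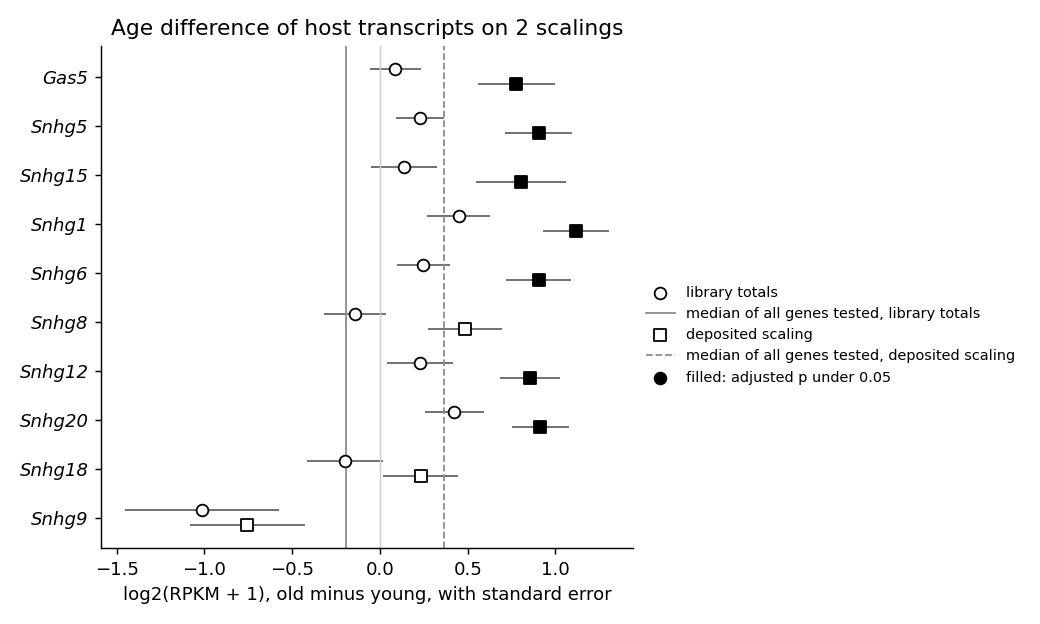
Log2 difference of each host, old minus young, with its standard error on library totals (circles) and on the deposited scaling (squares), filled where the adjusted p is under 0.05, and the median of all genes tested on each as a vertical line. On library totals 0 of 10 hosts are filled, and on the deposited scaling 7 are.

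The host rows do not measure spliced RNA alone. The length counted for Gas5 was 91.3% of its annotated span, for Snhg5 92.0%, and for Snhg1 and Snhg8 100%, so that the counted length took in annotated introns; whether reads of a snoRNA within it were counted towards the host, towards the snoRNA or towards neither is not given in the sources used here. For Snhg15 and Snhg18 the share was 42.9% and 36.3%. Spliced host RNA and unspliced precursor cannot be told apart in the rows with the high shares.

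For the snoRNA rows, whether a row held any read went with its place in the annotation. Of the 86 snoRNA rows that matched the name pattern, 41 had no read in any library, and 35 of these 41 (85.4%) overlapped an annotated exon of their host. Of the 45 rows with a read, 5 (11.1%) overlapped such an exon (Snord67, Snora33, Snord100, Snora28 and Snora2b). The submitters' processing notes name featureCounts, and how reads that overlapped more than 1 gene were treated is not given in the sources used here. Whether this sets the rows without a read was not tested.

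**Figure D3:**
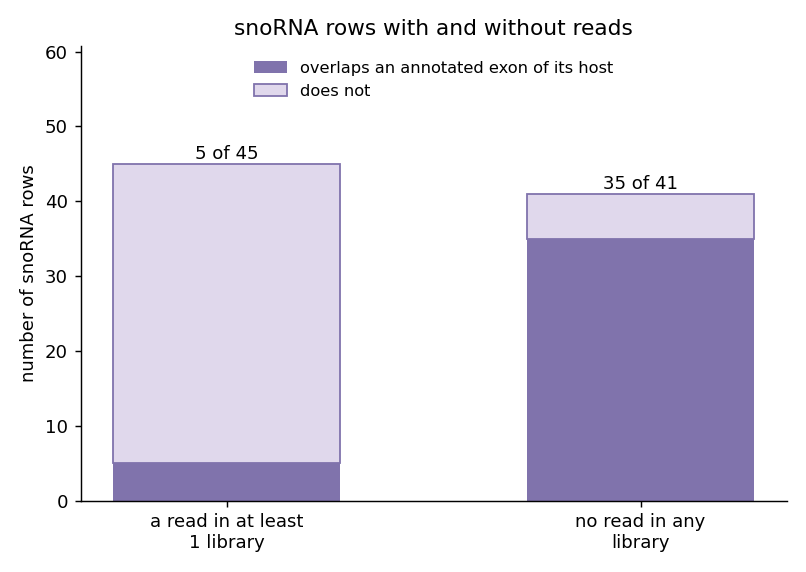
Number of snoRNA rows with a read in at least 1 library and with no read in any library, split by whether the snoRNA overlaps an annotated exon of its host gene. The overlap holds for 5 of 45 rows with a read and for 35 of 41 rows without.

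The 39 snoRNA members were 26 C/D and 13 H/ACA snoRNAs of 64 to 238 bases. Of these, 32 lay in 27 protein-coding hosts, 5 in non-coding hosts (among them Snord87 in Snhg6, and Snord49a and Snord49b in 2410006H16Rik), and 2 in no annotated host (Snora17 and Snord104). Their depth was low: the median row held 61 reads over the 8 libraries, and 12 rows held 76.9% of the 5438 reads. In the young libraries 21 to 29 of the 39 rows had at most 3 reads, against 4 to 7 rows in the old. For a row of 80 bases, 3 reads correspond to 1.51 to 1.87 RPKM in old and to 5.72 to 19.6 RPKM in young libraries, counting error only. Snord67 and Snora35 were counted in 1 read each, in young replicate 1, and reached the minimum through the small values that the deposited table holds in place of zeros. The members nearest the minimum were Snhg9 (1.20 RPKM), Snora35 (1.33 RPKM) and Snord85 (1.38 RPKM), and the rows just under it were Snora78 (0.986 RPKM) and Snora47 (0.953 RPKM), as deposited.

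Summed over the 39 rows, the snoRNA reads were 53.0, 43.7, 46.7 and 68.8 per M in the old libraries and 53.1, 57.5, 47.0 and 39.5 per M in the young. The groups overlapped, with means of 53.1 ± 11.2 in old and 49.3 ± 7.80 in young (SD, n = 4 each). C/D rows summed to 25.8 to 35.0 reads per M in old and 21.1 to 37.7 in young, and H/ACA rows to 17.4 to 33.8 in old and 18.5 to 21.7 in young. Both the C/D and the H/ACA sums overlapped between the ages.

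Of the 12 rows with the most reads, 10 overlapped between the ages; the other 2, Snora33 and Snord34, are described with the calls. Snora31, a guide of pseudouridylation in the Tpt1 gene, had 65.9, 44.6, 65.2 and 100 RPKM in old and 65.7, 64.4, 79.8 and 51.4 RPKM in young libraries, a log2 difference of 0.04 ± 0.22 (limma-trend, adjusted p = 0.913). Snora28, in the gene of the translation factor Eif5, had 59.6, 40.9, 49.9 and 97.6 RPKM in old and 52.6, 32.9, 51.6 and 44.3 RPKM in young libraries, a log2 difference of 0.39 ± 0.25. In both, old replicate 4 was the highest of the 8 libraries and the groups overlapped. Old replicate 4 was the highest old library in 7 of the 10 hosts and in 15 of the 37 snoRNA rows with a read in old. Old replicate 1 was the highest in 13 of these 37 rows, and young replicate 2, the shallowest library, was the highest young library in 18 of 39 rows. Snord53 (0.42 ± 0.20), Snord100 (0.39 ± 0.30), Snord87 (0.35 ± 0.31), Snord92 (0.29 ± 0.38), Snord49a (-0.0040 ± 0.22), Snora41 (-0.05 ± 0.22), Snord73a (-0.17 ± 0.33) and Snord49b (-0.32 ± 0.19) did not pass the test either.

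On library totals the rows of Snord34 and Snora33 were higher and that of Snord82 was lower in old libraries. Mature snoRNAs lack the poly(A) tail that was primed. Reads of the snoRNA and of unspliced host RNA cannot be told apart in these rows, so the differences are not ones in snoRNA level. Snord34 had 11.4, 15.5, 14.98 and 28.8 RPKM in old libraries (16, 27, 24 and 42 reads) and 0, 7.47, 8.72 and 0 RPKM in young libraries (0, 1, 4 and 0 reads). Every old library lay above every young one, and the log2 difference was 2.55 ± 0.72 (limma-trend, adjusted p = 0.0260). Without old replicate 2 or 4, or without young replicate 1 or 4, it did not pass (adjusted p of at most 0.0976, log2 difference 2.02 to 3.12 over all libraries left out in turn).

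Snora33 had 13.5, 9.35, 8.47 and 17.1 RPKM in old and 5.75, 8.11, 4.73 and 1.36 RPKM in young libraries, where it had 1 to 4 reads each. The lowest old library lay just above the highest young one, with a log2 difference of 1.24 ± 0.37 (limma-trend, adjusted p = 0.0303). The call was lost with limma-voom (1.25, adjusted p = 0.0795) and in 6 of 8 fits that left out a library, and Snora33 overlaps an annotated exon of Rps12, so that reads of Rps12 and of the snoRNA cannot be told apart. Snord82 had 2.85, 4.02, 3.75 and 0.686 RPKM in old libraries (1 to 7 reads) and 10.6, 14.9, 6.54 and 5.02 RPKM in young libraries (2 or 3 reads). Every old library lay below every young one, with a log2 difference of -1.44 ± 0.37 (limma-trend, adjusted p = 0.0186), and it passed on the deposited scaling (-0.88, adjusted p = 0.0479) and with limma-voom (-1.80, adjusted p = 0.0369) but not without young replicate 1 (-1.35, adjusted p = 0.0758), without young replicate 2 (-1.20, adjusted p = 0.0578) or without the 2 shallowest libraries (-0.93, adjusted p = 0.199). The young values of Snord82 rest on at most 3 reads in each library.

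With 2 of 39 rows higher and 1 lower, the snoRNA rows are to be read beside 7.11% higher and 20.5% lower among all genes tested. Groups did not overlap in the same 3 rows, beside 7.85% of all genes tested with old higher and 23.1% with old lower. The median log2 difference of the rows was 0.29, against -0.19 for all genes, 26 of 39 were positive, and 23 of 39 had more reads per M in old when the reads of each age were pooled. With limma-voom the median was -0.0020 and 1 row was called higher and 3 lower (Snord82 and the rows of 1 read, Snord67 and Snora35), beside 7.10% and 25.0% of all genes. On the deposited scaling the median was 0.62 with 20 rows higher and 1 lower, beside 42.1% and 5.34% of all genes, whose median was 0.36. When all libraries were thinned to the reads of the shallowest, the adjusted p was 0.127 for Snord34, 0.261 for Snora33 and 0.150 for Snord82. The size of the 3 differences also depended on the pseudocount added before the logarithm: with 0.1 and 5 in place of 1, it was 4.21 and 1.43 for Snord34, 1.45 and 0.80 for Snora33, and -1.80 and -0.84 for Snord82.

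**Figure D4:**
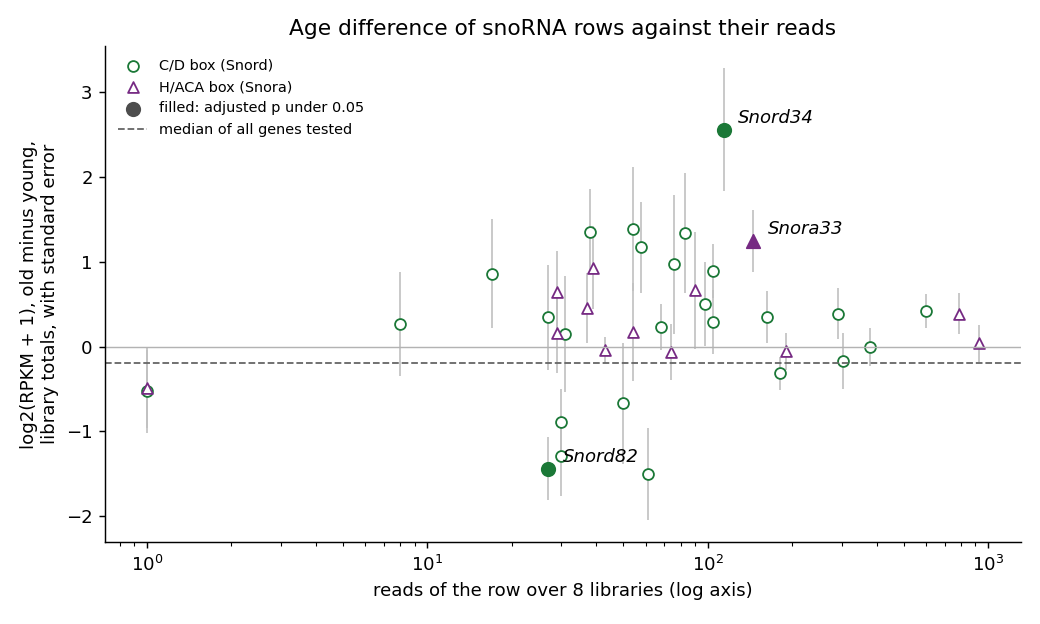
Log2 difference of the 39 snoRNA rows on library totals, old minus young, with standard errors, against the reads of the row over 8 libraries (log axis), C/D rows as circles and H/ACA rows as triangles. The 3 filled rows are Snord34 (2.55), Snora33 (1.24) and Snord82 (-1.44), and the 5 rows with the most reads lie between -0.17 and 0.42.

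Rows that share a host were compared with it. The 3 rows in Rpl13a summed to 58, 63, 44 and 88 reads in old libraries (2.89, 2.53, 1.92 and 4.23 per M) and to 1, 4, 10 and 4 reads in young libraries (0.371, 2.09, 1.53 and 0.703 per M). Old replicate 3 was lower than young replicate 2, so these sums overlap. Snord35a differed by 0.89 ± 0.32 (limma-trend, adjusted p = 0.0614) and Snord32a by 1.38 ± 0.73 (adjusted p = 0.175), while Rpl13a itself had 10.1, 12.8, 10.1 and 11.8 RPKM in old and 10.5, 7.92, 8.59 and 12.2 RPKM in young libraries (0.19 ± 0.15, adjusted p = 0.363). Rpl13a has near-identical processed copies in the genome, and how reads shared with them were counted is not given in the sources used here. Rps12, the host of Snora33 and Snord100, differed by 0.13 ± 0.18.

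Per length, most snoRNA rows were below their host. Over 36 rows with a host in the table, the reads per base of the snoRNA were 0.112 times those of its host in the median (range 0.00853 to 3.84), and 5 rows were above 1, among them Snord34 with 1.39. Some high ratios rest on few reads: the ratio of 3.84 is that of Snora35, with 1 read beside 19 of its host, and the host of Snord7 (3.60) had 61 reads. Only Snora31 had at least 10 reads with its host in every library. The log2 ratio of Snora31 to Tpt1 was 0.20 lower in old (difference -0.20, exact two-sided permutation test over 70 assignments, p = 0.543), and it was 0.03 without old replicate 2. With at least 3 reads in every library, 10 pairs could be tested, 0 passed after adjustment, and the smallest p that 4 against 4 libraries allow is 0.0286.

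Of the 27 protein-coding hosts of the snoRNA members, 25 were tested, and 5 rose and 0 fell on library totals, beside 7.11% higher and 20.5% lower among all genes, with a median log2 difference of 0.03 against -0.19. Those that rose were Wdr43 (0.92 ± 0.15), Nop56 (0.86 ± 0.16), Ncl (0.76 ± 0.17), Kansl2 (0.66 ± 0.14) and 2410002F23Rik (0.63 ± 0.12), with limma-trend adjusted p of 0.0108 or less, and Kansl2 missed the threshold with thinned reads (0.50, adjusted p = 0.0502) and without the 2 shallowest libraries (0.56, adjusted p = 0.0563). Wdr43, a nucleolar factor of ribosomal RNA synthesis, had 185, 259, 238 and 257 RPKM in old and 145, 102, 116 and 132 RPKM in young libraries. Ncl had 182, 227, 160 and 189 RPKM in old and 104, 139, 83.5 and 125 RPKM in young libraries, and every old library of Wdr43 and Ncl lay above every young one. Ncl thus rose while the row of Snord82, counted within the introns of Ncl, was lower in old. The difference between the rows was not tested because Snord82 had too few reads. The translation factor genes and ribosomal protein genes among the hosts did not pass the test, for example Eif5 (0.39 ± 0.15, adjusted p = 0.0648) and Rpl3 (adjusted p = 0.994), and neither did Tpt1 (0.24 ± 0.19, adjusted p = 0.364). On the deposited scaling 24 of 25 hosts were called higher and 0 lower, beside 42.1% and 5.34% of all genes.

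The proteins that form and assemble snoRNA particles (snoRNPs) held the most calls among the lists. Of snoRNP proteins and assembly factors, 12 of 26 tested rose and 0 fell on library totals, beside 7.11% and 20.5% of all genes, with a median log2 difference of 0.50 against -0.19. The background depends on the level: of the 5703 genes whose mean reached 5 RPKM, 12.3% were higher and 12.5% lower with a median of -0.0071, and of the list 12 of 22 rose and 0 fell with a median of 0.55. At that minimum the counts were 5 higher of 24 protein-coding hosts, 2 higher and 1 lower of 23 snoRNA rows, and 0 of 7 host transcripts. Of the core proteins of H/ACA particles, Dkc1, the pseudouridine synthase, had 33.1, 53.5, 38.6 and 44.6 RPKM in old and 20.5, 24.1, 18.5 and 26.2 RPKM in young libraries (0.89 ± 0.16, limma-trend adjusted p = 0.00554). Nhp2 had 74.1, 115, 92.1 and 113 RPKM in old and 44.7, 51.1, 39.5 and 55.7 RPKM in young libraries (1.02 ± 0.16, adjusted p = 0.00341). Both were higher in every old than in every young library.

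Of the other H/ACA core proteins, Gar1 rose with groups that overlapped (0.80 ± 0.26, limma-trend adjusted p = 0.0456) and missed the threshold with limma-voom (adjusted p = 0.0508), with thinned reads (adjusted p = 0.116) and in all but 2 of the 8 fits that left out a library, and Nop10 did not pass (0.55 ± 0.22, adjusted p = 0.0897). Of the C/D core proteins, Nop56 had 275, 363, 343 and 420 RPKM in old and 232, 164, 171 and 199 RPKM in young libraries (0.86 ± 0.16, adjusted p = 0.00512). Nop56 is itself a snoRNA host and counts in both lists. The methyltransferase Fbl (0.38 ± 0.14, adjusted p = 0.0684), Nop58 (0.37 ± 0.15, adjusted p = 0.0859) and Snu13 (0.37 ± 0.15, adjusted p = 0.0913) did not pass on library totals with limma-trend, and Fbl passed with limma-voom (adjusted p = 0.0437). Fbl, Nop10 and Gar1 were named after their values were seen, to complete the core proteins.

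Among the other factors, Rrp9, a protein of the U3 particle, had 52.2, 64.0, 43.8 and 67.6 RPKM in old and 27.0, 32.6, 18.5 and 25.6 RPKM in young libraries (1.11 ± 0.19, limma-trend adjusted p = 0.00386). Nolc1, a chaperone that binds snoRNPs, rose by 0.83 ± 0.15 (adjusted p = 0.00555) and Ruvbl1, an ATPase of snoRNP assembly, by 0.82 ± 0.18 (adjusted p = 0.0105). Rrp9, Nhp2, Dkc1, Nop56, Nolc1 and Ruvbl1 passed in all 8 fits that left out a library, and 7 of the list were called without the 2 shallowest libraries, Ruvbl1 not among them. Without these 2 libraries 422 of all 11096 genes were higher and 1336 lower.

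Nonsense-mediated decay factors were mixed. Of 18 tested, 1 rose (Eif4a3, a protein of the exon junction complex, 0.37 ± 0.12) and 4 fell, with a median log2 difference of 0.05. Those that fell on library totals were Nbas (-0.52 ± 0.11), Smg9 (-0.51 ± 0.14), the endonuclease Smg6 (-0.50 ± 0.15) and Pnrc2 (-0.31 ± 0.10), and all 4 turned positive without passing on the deposited scaling (0.04, 0.09, 0.09 and 0.37). Nbas had 3.58, 3.36, 3.54 and 3.28 RPKM in old and 4.77, 6.00, 5.60 and 5.17 RPKM in young libraries (limma-trend adjusted p = 0.00970). Of all genes tested, 7.11% were higher and 20.5% lower in old, and 4 lower of these 18 is a share near the latter. Among genes whose mean reached 5 RPKM, 1 of 14 decay factors was higher and 3 were lower, beside 12.3% and 12.5% of all genes. With any single library left out, 1 to 3 of the list were called lower. The calls of Smg9, Smg6, Pnrc2 and Eif4a3 were lost when the low-level signal of silent receptor genes was subtracted (the Nbas call was kept).

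**Figure D5:**
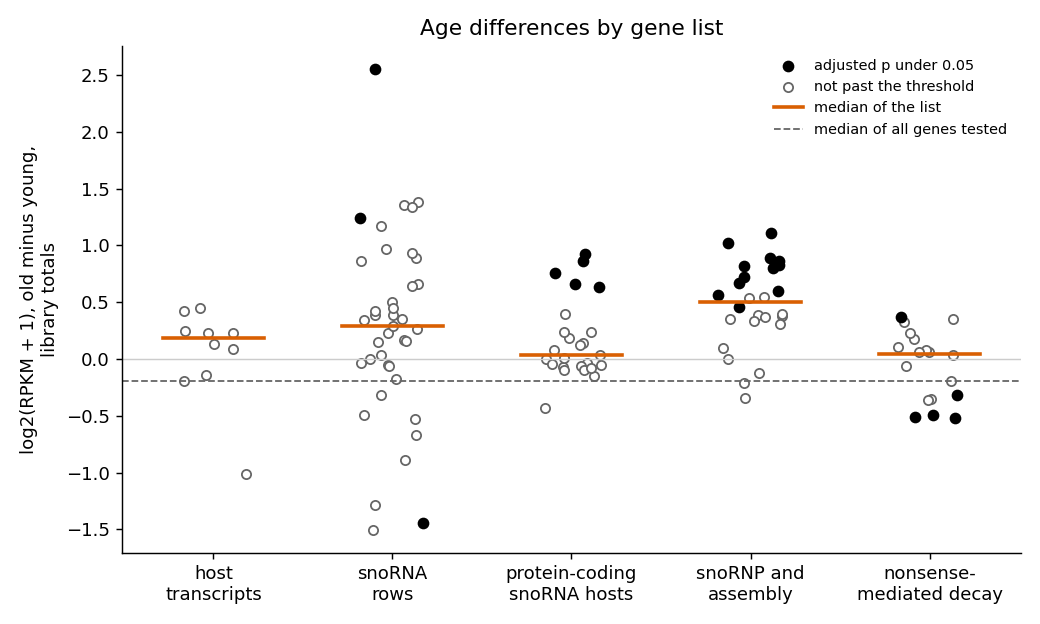
Log2 difference on library totals, old minus young, for host transcripts, snoRNA rows, their protein-coding hosts, snoRNP proteins with assembly factors and nonsense-mediated decay factors, each point a gene tested, filled where the adjusted p is under 0.05, with the list's median as a bar and the median of all genes (-0.19) as a dashed line. The filled points number 0 of 10, 3 of 39, 5 of 25, 12 of 26 and 5 of 18 from left to right.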

How the data were processed

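The authors deposited a single table in RPKM for 24630 genes and 8 libraries of sorted muscle stem cells, 4 old and 4 young, with 1 library per animal. Per the submitters' processing notes, Trim Galore, STAR, featureCounts, Subread and edgeR were used with mm10 and GRCm38; neither versions nor settings are given in the sources used here. Zeros had been replaced within 7124 genes by a small value, and 1169 genes had no read. In 23461 genes the deposited RPKM values came out as whole reads (largest distance from a whole number 0.000164, tolerance 0.03), and reads per gene were recovered and scaled by library totals. The test was limma-trend in R 4.3.3 (package limma, version 3.58.1), applied to log2(RPKM + 1), old minus young, in the 11096 genes whose mean reached 1 RPKM, with Benjamini-Hochberg adjustment over all of them and a threshold of 0.05; fold changes on this scale understate low genes. limma-voom on recovered reads, the deposited scaling, other pseudocounts and filters, thinned reads, subtraction of low-level signal and leaving out libraries were alternatives. A snoRNA was set against its host by an exact permutation test (scipy 1.17.1). The members and gene lists were chosen with earlier results of these data known. The text names every host, the 12 snoRNA rows with the most reads, every row past the threshold and, per list, up to 6 genes past it in each direction and up to 3 others; Snord32a, Rpl13a, Rps12, Tpt1, Eif5, Fbl, Nop10 and Gar1 were added after their values were seen. Host and exon overlap came from GENCODE M21 coordinates. Scripts were tested on simulated data drawn with the library sizes of this study. In them unchanged genes made up a larger share of the limma-trend calls than the threshold of 0.05 allows, mostly genes under 5 RPKM. Among limma-voom calls that share was nearer to the threshold, so adjusted p values just under 0.05 that limma-voom does not share are uncertain. In the data limma-voom also called Snord67 and Snora35, with 1 read each, lower in old, so its calls on rows of few reads are uncertain too. The libraries were treated as unpaired, since the labels do not say whether replicate numbers pair them.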

Additional observations from a re-analysis of the deposited data

Results flagged for a closer look

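Host transcripts and named snoRNA rows were screened for a library far from the other 3 of its age, with 50 groups of 4 libraries screened and 4 found, where chance gives about 1 in 20. Old replicate 4 stood above the other old libraries for Gas5 (149.1 RPKM on library totals), Snhg20 (4.149 RPKM) and Snord100 (51.95 RPKM). Young replicate 1 stood above the other young libraries for Gas5 (164.7 RPKM).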

How the results depend on the processing

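Counts of calls are given as higher, then lower, in old against young. Depth limits the snoRNA rows: most held few reads in the young libraries, which were also the shallow ones. Of 1004 values of 56 named genes under an alternative, 842 kept their direction and side of the threshold, 68 lost their call, 53 gained one and 41 took the other direction. Of these 41, 5 were past the threshold, all on the deposited scaling (Snord49a, Snora41, Eef2, Rps3a1 and Rpl3). The cause was not tested.

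On the deposited scaling the calls were 7 higher for host transcripts, 20 higher for snoRNA rows, 23 higher for snoRNP proteins and assembly factors, 24 higher for protein-coding snoRNA hosts, and 11 higher and 0 lower for decay factors. Of all genes tested, 42.1% were higher and 5.34% lower on that scaling. With limma-voom the calls were 1 higher for host transcripts, 1 higher and 3 lower for snoRNA rows, and 2 higher for decay factors, beside 7.10% and 25.0% of all genes. Without the 2 shallowest libraries the calls were 1 higher for host transcripts, 5 higher and 0 lower for snoRNA rows, 7 higher for snoRNP proteins, and 0 higher and 1 lower for decay factors. In that fit 422 of all 11096 genes were higher and 1336 lower. With low-level signal subtracted, 1 host transcript was higher, and 2 decay factors were higher and 1 lower, beside 912 and 1212 of all genes. With thinned reads, 1 snoRNA row was higher and 1 lower, neither of them Snord34, Snora33 or Snord82, and 1 decay factor was lower. Of all genes tested with thinned reads, 565 were higher and 1316 lower. With a pseudocount of 5, 2 decay factors were higher and 4 lower, and with no filter 2 were higher and 5 lower. Among all genes tested, lower calls outnumbered higher calls in both of these fits.

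Leaving out each library in turn gave 0 to 2 higher and 0 to 1 lower host transcripts (2 without young replicate 2, 1 without young replicate 4), 0 to 5 higher and 0 to 3 lower snoRNA rows, 8 to 15 higher and 0 to 1 lower snoRNP proteins, 0 to 2 higher and 1 to 3 lower decay factors, and 5 to 6 higher protein-coding hosts. In these fits 504 to 886 of all 11096 genes were higher and 1257 to 2208 lower. Higher snoRNA rows numbered 0 without old replicate 2 or 4 or young replicate 1, 1 without old replicate 1 and 5 without young replicate 2, and lower ones 0 without young replicate 1 or 2 and 3 without young replicate 3 or 4. The difference of the log2 ratio of Snora31 to Tpt1 ranged from -0.41 to 0.032, positive without old replicate 2.

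The labels do not say whether replicate numbers pair the libraries. The deviations of same-numbered libraries correlated by -0.08, -0.03, 0.26 and -0.12, from which a shared batch cannot be told. A fit with the replicate number as a block called 0 host transcripts, 2 snoRNA rows higher and 3 lower, 15 snoRNP proteins higher, and 0 decay factors higher and 2 lower. That fit called 680 of all 11096 genes higher and 1673 lower.

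Outside the deposited scaling, the log2 differences that changed direction were mostly small. On the deposited scaling Snhg8 was 0.48, Snhg18 0.23, Snord49a 0.68, Snord73a 0.50, Snora41 0.60, Snord49b 0.35, Nbas 0.043, Smg9 0.089, Smg6 0.092, Pnrc2 0.37, Eef2 0.64, Rps3a1 0.61 and Rpl3 0.69. Of these, Snord49a, Snora41, Eef2, Rps3a1 and Rpl3 passed the test there as higher in old. With thinned reads Snhg15 was -0.027, Snora41 0.44, Snord49b 0.069, Snord87 -0.32 and Rpl3 0.0064. With limma-voom Snora31 was -0.0020 and Snord49a 0.0019, and with low-level signal subtracted Snhg18 was 0.097 and Snord49a 0.0089. Without the 2 shallowest libraries Snord49a was 0.22 and Snora41 0.14. With each library left out in turn, the range was -0.25 to 0.0078 for Snhg8 (positive without young replicate 3), -0.013 to 0.24 for Snhg15 (negative without old replicate 4), -0.16 to 0.22 for Snora31, -0.25 to 0.13 for Snord49a, -0.50 to 0.18 for Snord73a, -0.19 to 0.18 for Snora41, -0.059 to 0.71 for Snord92, -0.17 to 0.0083 for Rps3a1 and -0.045 to 0.046 for Rpl3.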
